A study of Mus musculus with 5 samples.

Results

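The genes of fatty acid oxidation and the peroxisome were followed across cell classes, proximal tubule segments and regions of the mouse kidney. They are 33 symbols of a named list, chosen by function but with earlier results of these data known. All 33 were among the 16934 genes listed in the 5 libraries. By role, 7 act in activation and the carnitine shuttle (Acsl1, Acsm2, Acsm3, Cpt1a, Cpt2, Slc25a20, Crat), 4 are acyl-CoA dehydrogenases (Acadm, Acadl, Acadvl, Acads) and 5 carry the later mitochondrial steps (Hadh, Hadha, Hadhb, Echs1, Acaa2). A further 3 handle unsaturated chains (Eci1, Eci2, Decr1), 3 pass electrons on (Etfa, Etfb, Etfdh), and 8 serve peroxisomal oxidation and transport (Acaa1a, Acaa1b, Ehhadh, Hsd17b4, Scp2, Abcd3, Crot, Acot4). Cat and Pex11a stand for peroxisomal peroxide removal and division, and Ppara is the regulator.

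Fatty acids are bound to coenzyme A, carried into the mitochondrion as carnitine esters and shortened in repeated rounds of dehydrogenation, hydration, dehydrogenation and thiolysis, with electrons leaving through the electron transfer flavoprotein. Peroxisomes shorten very long and branched chains and hand the products over as carnitine esters, and catalase removes the hydrogen peroxide that this produces. The kidney's proximal tubule is rich in both organelles and relies on fat as a fuel, and the nuclear receptor PPARα (gene Ppara) is a known activator of many of these genes.

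All libraries were Drop-seq libraries of wild-type mouse kidney, of the strain written as C56BL/6N in the labels, in which each captured mRNA carries a cell barcode and a unique molecular identifier (UMI). There was 1 library each of cortex, outer medulla and inner medulla, dissected from the organ, and there were 2 of whole kidney, with no treatment. The labels give neither the age nor the number of animals, so replicates may share an animal. Every p-value below rests on how differences between classes or segments vary from library to library. Because the libraries are of different regions, that spread also holds differences between regions, and it does not measure the spread between animals. Barcodes with at least 200 detected genes were taken as cells, which left 12121 cells, 898 to 3305 a library, at a median of 440 to 517 UMIs a cell, and 4 cell barcodes occurred in more than 1 library.

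Cells were grouped without the 33 genes and without related metabolic genes, and the groups were named from marker genes. Of the cells, 8276 were proximal tubule-like, 684 distal convoluted tubule-like, 513 thick ascending limb-like and 834 principal cell-like, the last being the water-reabsorbing cells of the collecting duct. Their defining markers were present: median levels were 3073 CPM (UMIs on a counts-per-million scale) of Slc34a1, 6488 of Slc12a1, 2042 of Slc12a3 and 17278 of Aqp2 in the proximal, thick ascending limb, distal convoluted and principal classes. Within the proximal tubule, 3384 cells were S1-like (early), 854 S2-like and 2135 S3-like (late), and 1903 were left unnamed, of which 394 were led by Umod, Egf and Slc12a1 and 88 by Calb1 and Tmem52b, all genes of distal classes. The other 1421 unnamed cells had a median of 366 UMIs. They scored highest for S3 (0.09), below the minimum of 0.3 for a name, with 544 CPM of Slc7a13 and 588 CPM of Acsm3. Slc5a2, the early glucose carrier, had a median of 1017 CPM in S1-like and 34.8 CPM in S3-like cells, and Slc7a13, a late amino acid carrier, 47.2 and 1138 CPM. Atp11a (245 CPM) and Acy3 (3467 CPM), also late markers, were highest in S3-like cells among the segments. Cyp7b1 (25.3 CPM) and Slc22a19 (17.8 CPM) were low there, and high in 94 of the S3-like cells only (810 and 622 CPM). Of the S2 markers, Slc22a8 and Ttr were highest in S2-like cells, but Slc22a6 stood at 941 CPM in S3-like and 606 CPM in S2-like cells. The S3-like name thus rests on part of the late markers. CPM are the UMIs of a gene scaled to the total UMIs of the class in a library, and since UMIs here mark transcript ends they are not divided by length.

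Because PPARα is known to bind AGGTCA half-sites, and a direct repeat of them 1 base apart, the 250 bases before the start of each gene were searched on both strands for AGGTCA and for that direct repeat. RefSeq promoters (GRCm38.p6) matched 29 of the 33 genes, all but Hsd17b4, Acaa2, Crat and Decr1. The half-site occurred in 7 of 29 (24.1%), against 15.8% of 27025 genes, and the direct repeat in 0 of 29, against 0.0407% of all genes (11 genes). The 7 windows are printed 5′ to 3′ on the strand of the gene, with the half-site in capitals (TGACCT is the same half-site on the other strand). The first 3 belong to genes that were higher in S3-like than in S1-like cells, the last 4 to genes that were not called there.
Acadm (chr3:153944867-153944893, minus strand): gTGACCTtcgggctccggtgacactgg
Echs1 (chr7:140116479-140116524, minus strand): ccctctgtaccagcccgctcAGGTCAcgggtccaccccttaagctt
Scp2 (chr4:108118631-108118676, minus strand): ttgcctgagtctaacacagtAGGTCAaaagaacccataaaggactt
Cat (chr2:103485332-103485377, minus strand): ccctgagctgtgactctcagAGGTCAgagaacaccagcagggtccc
Acadvl (chr11:70015490-70015535, minus strand): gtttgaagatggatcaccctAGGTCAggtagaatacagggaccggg
Acot4 (chr12:84038346-84038378, plus strand): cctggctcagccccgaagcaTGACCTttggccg
Cpt1a (chr19:3323187-3323232, plus strand): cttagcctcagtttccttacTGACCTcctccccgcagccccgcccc
These matches describe letters in a window and are not measured binding sites.

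The 33 genes together made up a larger share of the UMIs in proximal tubule-like cells than in any other class measured in these libraries. Their summed share was 1.27% for cortex, 1.21% for the outer and 1.42% for the inner medulla (90 cells), and 1.37% and 1.33% for whole kidney 1 and 2. The lowest of these lay above the highest library of the thick ascending limb-like class, which ranged from 0.772% to 0.933% with a median of 0.793%. The distal convoluted tubule-like class followed with a median of 0.826% (4 libraries, 0.771% to 0.856%), the connecting tubule-like class with 0.738%, the intercalated cell-like class with 0.693% and the principal cell-like class with 0.593%. The thin limb-like class stood at 0.759% in outer medulla and 0.449% in inner medulla. With classes taken from a marker score of each cell its median was 1.21%, against 1.34% in the proximal class under that setting. The ranges of the thick ascending limb-like and distal convoluted tubule-like classes overlap, so no order is read between them. Within the proximal tubule the median share was 1.17% in S1-like, 1.33% in S2-like and 1.44% in S3-like cells. Every S3-like library (1.32% to 1.69%) lay above every S1-like library (1.08% to 1.21%), and S2-like libraries (1.19% to 1.36%) overlapped both.

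**Figure D1:**
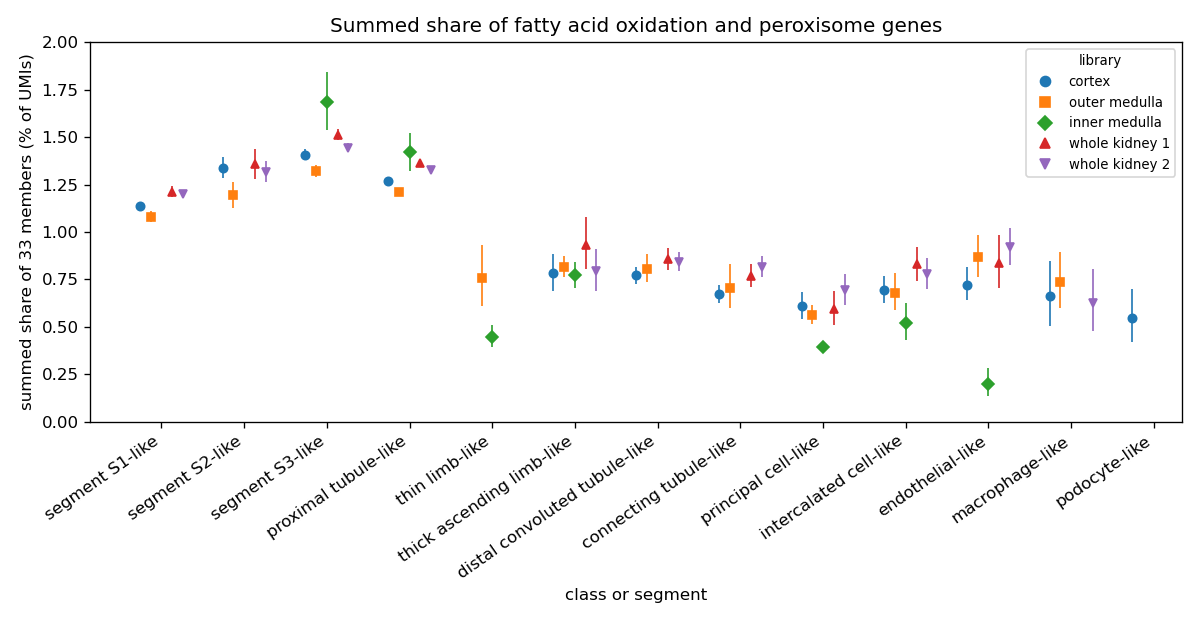
Summed UMIs of the 33 genes as a percentage of all UMIs of a class or segment (y axis, from 0), with 1 point per library and exact 95% binomial intervals as bars. Proximal tubule-like points lie between 1.21% and 1.42%, above the 0.772% to 0.933% of the thick ascending limb-like points.

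A large part of the proximal share was Acsm2, which activates medium-chain fatty acids. It made up 30.2% of the UMIs of the 33 genes in proximal tubule-like cells of cortex and 18.7% in those of inner medulla. Without it the proximal median was 0.925% (0.884% to 1.16%), and the thick ascending limb-like median 0.765% (0.697% to 0.871%), so the 2 classes still did not overlap, but by a narrower margin. UMIs from free RNA were read from proximal tubule markers in other classes. They amounted to 15.5% to 23.4% of the UMIs of thick ascending limb-like cells outside the inner medulla and to 3.70% within it. Barcodes under 100 genes, from which the free RNA profile was taken, had a summed share of 1.20% in cortex, 1.07% in outer and 0.630% in inner medulla. In whole kidney 1 and 2 it was 1.29% and 1.29%. S1-like cells of cortex and whole kidney 1 and 2 (1.14%, 1.21% and 1.20%) lay below these barcodes, and those of outer medulla (1.08%) near them. The endothelial-like class, at a median of 0.837%, had an estimated free RNA share of 74.2% to 96.2% outside the inner medulla, and its inner medulla cells, with 3.23%, had a summed share of 0.198%. Outside the inner medulla, the share of the 33 genes put down to free RNA in this class (0.958% to 1.13%) exceeded the observed share (0.723% to 0.922%) in each library. The estimate is thus too high there, and whether it is also too high in other classes was not tested. The endothelial-like, macrophage-like (0.660%) and podocyte-like (0.547%, 1 library) shares are therefore not read as expression.

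Set against the mitochondrial respiratory chain, the proximal class stood further apart from the thick ascending limb-like and distal convoluted tubule-like classes. Its fold difference from the principal cell-like class was not larger. The UMIs of the 33 genes were divided by those of 42 nuclear oxidative phosphorylation genes, which encode subunits of the respiratory chain and ATP synthase. The median ratio was 0.242 in proximal tubule-like cells (0.224 to 0.291), 0.100 in thick ascending limb-like cells (0.0689 to 0.126) and 0.0843 in distal convoluted tubule-like cells (0.0744 to 0.0901). Principal cell-like cells lay at 0.118 (0.113 to 0.157). Along the proximal tubule the median ratio was 0.207 in S1-like, 0.249 in S2-like and 0.279 in S3-like cells. S1-like libraries (0.186 to 0.234) lay below all S3-like libraries (0.260 to 0.337), and the proximal libraries lay above all libraries of these 3 distal classes. Acsm2 weighs on this ratio. Without it the summed share was 0.884% in proximal cells of cortex, beside 5.40% for oxidative phosphorylation. In inner medulla the values were 0.389% and 2.50% in principal cell-like cells, and 0.445% and 2.69% in thin limb-like cells. The margin over principal cell-like cells was then narrow, and the thin limb-like libraries fell within the proximal range.

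**Figure D2:**
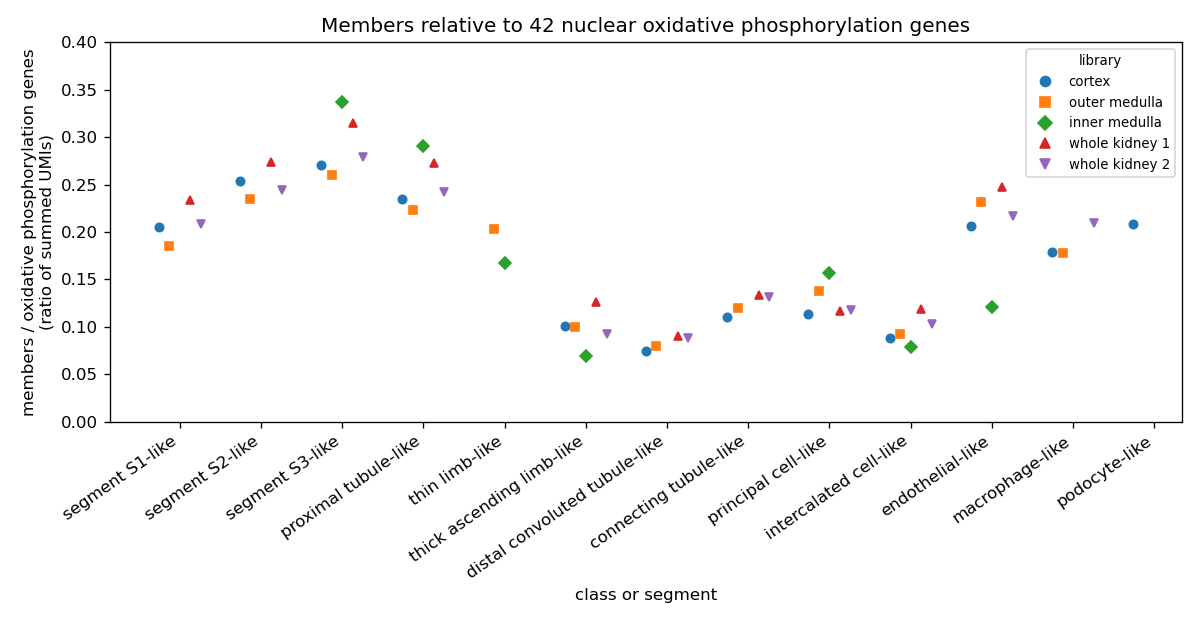
Ratio of the summed UMIs of the 33 genes to those of 42 nuclear oxidative phosphorylation genes (y axis, from 0) in each class or segment, 1 point per library. The ratio lies between 0.224 and 0.291 in proximal tubule-like cells and between 0.0689 and 0.126 in thick ascending limb-like cells.

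Single genes were compared between classes on UMIs summed per class and library, with edgeR's quasi-likelihood test, the library as a block, and Benjamini-Hochberg adjustment over all genes tested. The classes were drawn from the same cells by other genes, so a gene that varies together with those is more likely to be called. In this comparison 25 of the 33 genes had enough UMIs to be tested. Against thick ascending limb-like cells, 12 were higher in proximal tubule-like cells and 2 lower, and 11 were not called. Of all 3681 genes tested, 17.4% were called higher and 13.7% lower. The median log2 fold change was 0.60 over the 25 genes and 0.13 over all genes. Without TMM scaling factors the median over all genes moved by -0.36, and the split among the 25 became 6 higher and 3 lower. The number called higher was 7 without cortex, 7 without outer medulla, 9 without inner medulla, 6 without whole kidney 1 and 8 without whole kidney 2. With proximal cells of the named segments only, which leaves out all 1903 unnamed cells, among them those led by distal genes, the counts in all 3 comparisons were the same. Of the 12, Acsm2, Acsm3, Hadh, Acaa1b, Scp2 and Cat kept their call whichever library was left out. Acadm and Acaa1a lost it without any 1 of the 5 libraries (log2 fold changes of 0.23 to 0.70 and of 0.53 to 0.84). Crot lost it without outer medulla, inner medulla or whole kidney 1 (0.75 to 1.14), and Etfb (0.27 to 0.48) and Abcd3 (0.61 to 0.84) without any but inner medulla. Decr1 lost it without outer medulla, inner medulla or either whole kidney library (0.45 to 0.94), and without cortex it had too few UMIs to be tested.

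Against distal convoluted tubule-like cells 11 were higher and 4 lower (19.1% and 17.0% of all genes), and against principal cell-like cells 19 were higher and 1, Hadha, lower (20.6% and 24.2%). The median log2 fold change over the 25 genes was 0.53 and 1.12, against 0.05 and -0.10 over all genes. The share of the 33 genes called higher exceeded the share over all genes in each of the 3 comparisons, by the widest margin against principal cell-like cells. Without whole kidney 1 the count against the distal convoluted tubule-like class was 6, with the calls of Acadm (0.59), Acaa1a (0.70), Crot (0.75), Eci2 (0.64) and Etfb (0.43) lost. Acaa1a also lost its call without cortex (0.45), outer medulla (0.75) or whole kidney 2 (0.59), Crot without cortex (0.82), Eci2 without whole kidney 2 (0.69), and Etfb without outer medulla (0.61) or whole kidney 2 (0.66). Against the principal cell-like class it was 12 of 20 tested without cortex, where Abcd3 (0.48), Acaa1a (0.55) and Acadvl (0.58) lost their calls and Acsl1, Cpt1a, Decr1 and Pex11a had too few UMIs to be tested. These calls against the principal cell-like class were also lost without other libraries: Abcd3 without inner medulla or either whole kidney library (0.35 to 0.52), Acaa1a and Acadvl without outer medulla or whole kidney 1 (0.43 to 0.74), and Acadvl without inner medulla (0.41). Cpt1a lost its call without outer medulla or either whole kidney library (0.66 to 0.93), and Pex11a without outer medulla (1.48).

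Against thick ascending limb-like cells, the genes with the largest proximal excess were the medium-chain acyl-CoA synthetases. Acsm3 stood at 270, 314, 996, 711 and 623 CPM in proximal tubule-like cells of cortex, outer medulla, inner medulla, whole kidney 1 and whole kidney 2, and at 0, 58.6, 0, 103 and 79.3 CPM in thick ascending limb-like cells. All proximal libraries lay above all thick ascending limb-like ones, with a log2 fold change of 3.88 ± 0.47 (SE; edgeR adjusted p = 5.73e-10). Acsm2 stood at 3835, 3181, 2657, 4198 and 4008 CPM in proximal tubule-like cells, and at 845, 498, 73.2, 619 and 674 CPM in thick ascending limb-like cells. The groups did not overlap (log2 fold change 3.37 ± 0.33, edgeR adjusted p = 4.5e-13), and the lowest distal value was that of the inner medulla, where free RNA was also lowest. Acsm2 and Acsm3 were the 2 genes still called against the thick ascending limb-like class under every setting tried. Leaving aside the minimum of 500 genes, under which that class was 1 library, Acaa1b, Scp2, Cat, Hadha and Hadhb also kept their calls. Of the other activation and shuttle genes only Acsl1 and Cpt1a could be tested. Acsl1, the long-chain synthetase, had a log2 fold change of -0.86 ± 0.44, and Cpt1a, the entry enzyme of the carnitine shuttle, of -0.18 ± 0.33, neither of them called. Against principal cell-like cells both were higher, Acsl1 by 2.26 ± 0.64 (edgeR adjusted p = 0.00261) and Cpt1a by 0.95 ± 0.36 (edgeR adjusted p = 0.0241), beside 3.47 ± 0.32 for Acsm2 and 4.67 ± 0.46 for Acsm3. Cpt1a was lower in proximal tubule-like than in distal convoluted tubule-like cells (-0.69 ± 0.25, edgeR adjusted p = 0.0248), and this call was lost in 5 alternatives.

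Peroxisomal genes made up the next group, with 5 of 6 tested genes of peroxisomal oxidation and transport higher than in thick ascending limb-like cells. Acaa1b, a peroxisomal thiolase, stood at 287, 304, 406, 208 and 204 CPM in the proximal libraries and at 0, 68.4, 14.6, 0 and 39.6 CPM in the thick ascending limb-like ones (log2 fold change 3.31 ± 0.46, edgeR adjusted p = 1.9e-08). The libraries of the classes did not overlap. Acaa1b and Acaa1a are near-identical copies, and how the deposited counts split reads between them is not known, so both values are uncertain. Catalase (Cat), which breaks down hydrogen peroxide, stood at 415, 373, 351, 352 and 328 CPM against 151, 87.9, 58.6, 155 and 158 CPM, with no overlap (log2 fold change 2.09 ± 0.30, edgeR adjusted p = 4.26e-08). Scp2, a lipid carrier with peroxisomal thiolase activity, stood at 1258, 1103, 1273, 1474 and 1280 CPM against 483, 361, 527, 825 and 317 CPM. Its groups also lay apart (log2 fold change 1.76 ± 0.23, edgeR adjusted p = 4.67e-09). Crot, which makes medium-chain carnitine esters for export from the peroxisome, had a log2 fold change of 1.31 ± 0.39, and Abcd3, a peroxisomal importer of acyl-CoA, of 0.84 ± 0.29, with the limits on both calls given above. Hsd17b4, the peroxisomal bifunctional enzyme of branched chains, was not called against any of the 3 classes.

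The trifunctional protein went the other way. Hadha and Hadhb encode its subunits, which carry out the last 3 steps for long chains at the inner mitochondrial membrane. Hadhb stood at 82.3, 80.4, 18.5, 97.5 and 80.5 CPM in proximal tubule-like cells and at 392, 313, 381, 567 and 357 CPM in thick ascending limb-like cells. Hadha stood at 81.3, 91.5, 18.5, 67.4 and 83.4 CPM in the former and at 211, 361, 234, 516 and 238 CPM in the latter. The classes did not overlap for either gene. The log2 fold changes were -1.83 ± 0.26 for Hadhb (edgeR adjusted p = 4.27e-08) and -1.71 ± 0.27 for Hadha (edgeR adjusted p = 3.49e-07). Against the distal convoluted tubule-like class they were -1.60 ± 0.23 and -1.24 ± 0.24, both called under every setting tried, and Echs1, the short-chain hydratase, was lower as well (-0.91 ± 0.20). Hadh, the dehydrogenase of shorter chains, was higher in proximal than in thick ascending limb-like cells (1.49 ± 0.28), with values of 597, 610, 701, 658 and 606 CPM against 272, 215, 352, 51.6 and 476 CPM. In distal convoluted tubule-like cells Hadh stood at 606 to 861 CPM and was not called against the proximal class.

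The acyl-CoA dehydrogenases differed little between the proximal and thick ascending limb-like classes. Acadm, the medium-chain enzyme, was called higher at 0.63 ± 0.24 (edgeR adjusted p = 0.0345), a call that, among cells of at least 500 genes, changed sign (-0.23). Acadl and Acadvl, the long-chain and very-long-chain enzymes, had log2 fold changes of -0.11 ± 0.22 and -0.26 ± 0.27 and were not called. The flavoprotein subunit Etfb was called at 0.54 ± 0.20 and Etfa was not (0.24 ± 0.21). Against principal cell-like cells all 5 of these genes were higher, Acadm by 1.65 ± 0.25, Etfa by 1.18 ± 0.22, Acadl by 1.01 ± 0.23, Etfb by 1.00 ± 0.20 and Acadvl by 0.70 ± 0.28. Among the genes of unsaturated chains, Decr1, the dienoyl-CoA reductase, was called higher in the proximal class against all 3 distal classes (0.84 to 1.25), Eci2 against the distal convoluted tubule-like class only (0.95 ± 0.28, with 0.75 ± 0.32 against the thick ascending limb-like class, not called), and Eci1 against none.

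**Figure D3:**
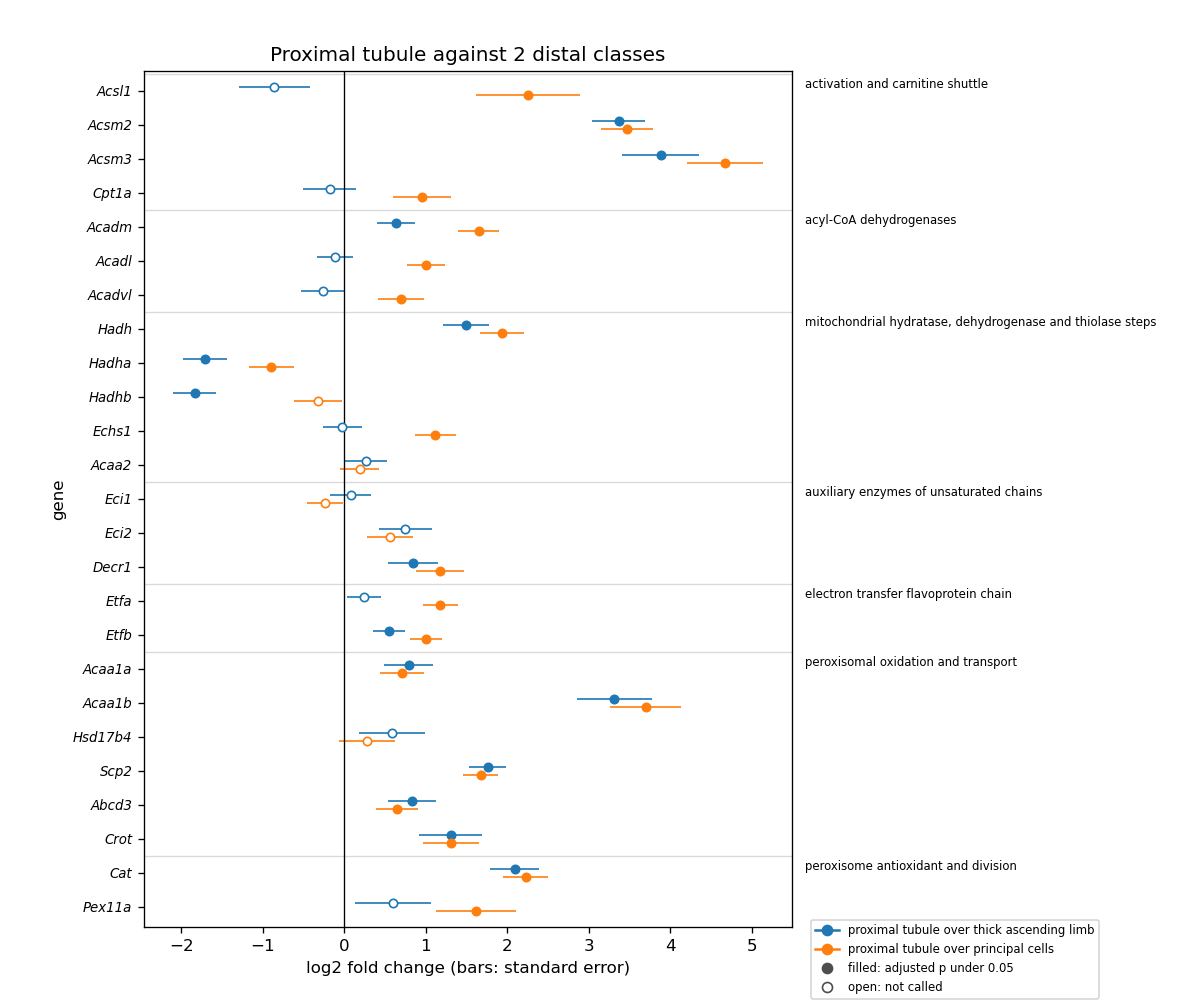
Log2 fold change (x axis, edgeR) of each tested gene in proximal tubule-like cells over thick ascending limb-like cells (blue) and over principal cell-like cells (orange), with standard errors as bars and filled points for adjusted p under 0.05. Acsm2, Acsm3 and Acaa1b lie above 3 in both comparisons, and Hadha and Hadhb lie below -1.5 against the thick ascending limb-like class.

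Another 8 genes had too few distal UMIs for the test. Ehhadh, the peroxisomal bifunctional enzyme, had 844 UMIs in proximal tubule-like cells (median 116 CPM) against 10 in thick ascending limb-like cells (30.2 CPM), 16 in distal convoluted tubule-like cells (25.4 CPM) and 6 in principal cell-like cells (34.1 CPM). Ppara had 1088 UMIs and a median of 132 CPM in the proximal class, against 58.6, 56.2 and 24.3 CPM in the distal ones. Acot4, a peroxisomal thioesterase with near-identical relatives, had 432 UMIs (58.4 CPM) against 3, 3 and 0. The 0 UMIs of Acot4 in principal cell-like cells allow a level of up to 5.94 CPM, with 3 UMIs taken as the limit that a count of 0 allows. Slc25a20, the carnitine carrier of the inner membrane, had the opposite order of medians, 30.7 CPM in the proximal and 87.9 CPM in the thick ascending limb-like class, on 20 UMIs in the latter. Cpt2, Crat, Acads and Etfdh had proximal medians of 63.9, 58.3, 129 and 90.1 CPM and thick ascending limb-like medians of 39.6, 78.1, 68.4 and 119 CPM.

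Thick ascending limb-like cells were also set against principal cell-like cells, since both lie beyond the proximal tubule. In thick ascending limb-like cells 9 of 25 genes were higher and 0 lower, against 9.43% and 12.4% of all genes. DESeq2 called 10 higher and 0 lower, and at an unadjusted edgeR p under 0.05 the counts were also 10 and 0. The 9 genes were Acsl1, Cpt1a, Acadm, Acadl, Acadvl, Hadha, Hadhb, Echs1 and Etfa, which act in or at the mitochondrion. Of 6 tested genes of peroxisomal oxidation and transport 0 were called by either tool or at an unadjusted p under 0.05, but the background of 9.43% would call fewer than 1 of 6, and the difference between the groups was not tested. Among related peroxisomal genes, 2 of 5 of biogenesis (Pxmp2 and Slc25a17) and 3 of 17 other enzymes (Phyh, Ech1 and Hao2) were higher in thick ascending limb-like cells. Acsl1 stood at 60.3, 156, 146, 258 and 39.6 CPM in the thick ascending limb-like libraries and at 0, 35.3, 13.2, 0 and 0 CPM in the principal cell-like ones (log2 fold change 3.12 ± 0.66, edgeR adjusted p = 0.000237). The groups did not overlap, but 0 UMIs allow up to 64.1, 102 and 73.0 CPM in the principal cell-like cells of cortex, whole kidney 1 and whole kidney 2, which is above the lowest thick ascending limb-like values. Hadhb followed with 1.51 ± 0.31 (edgeR adjusted p = 0.000147), Echs1 with 1.14 ± 0.29, Cpt1a with 1.13 ± 0.42 and Acadl with 1.12 ± 0.26. Of the 41 tested oxidative phosphorylation genes, 39 were higher and 0 lower in the thick ascending limb-like class. With cells of at least 500 genes, where 1 library kept enough thick ascending limb-like cells, 0 were called and Hadhb changed sign (-0.26). Acadm, Acadl, Hadhb, Echs1 and Etfa kept their calls in all other settings in which they were tested. Acadvl (0.54), Cpt1a (1.12) and Hadha (0.74) lost their calls without inner medulla, and Cpt1a (0.87), Hadha (0.83) and Acadvl (1.09) without outer medulla. Acadvl also lost it without cortex (1.01), Hadha without whole kidney 1 (0.85) and Cpt1a without whole kidney 2 (1.18).

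Along the proximal tubule all 33 genes could be tested, and 17 were higher and 6 lower in S3-like than in S1-like cells, with 10 not called. Of 5869 genes tested, 18.7% were called higher and 19.4% lower, so the share called higher among the 33 exceeds the background and the share called lower is near it. The median log2 fold change was 0.32 over the 33 genes and -0.01 over all genes. For 17 of the 23 called genes the S2-like median lay between those of S1-like and S3-like cells, and 22 of the 23 moved the called way in each of the 4 libraries with both segments, Abcd3 being the exception (3 of 4). Neither count was taken over all genes. The S2-like medians of the markers Slc5a2 (377 CPM) and Slc7a13 (186 CPM) also lay between, so the 17 are not read as particular to these genes. S3-like cells had higher median UMIs (556 to 967 a cell) than S1-like cells (552 to 602), and Kap, an abundant androgen-regulated transcript, stood at 79377 to 113103 CPM in S3-like cells against 8296 to 10823 CPM in S1-like cells. With cells of at least 500 genes only, 14 genes were higher and 7 lower. Subtraction of free RNA was not applied to the proximal segments. Of the 23 calls, 19 held in every other setting, and the exceptions were Acsm2, Eci1, Etfb and Abcd3.

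Acsm3 had the largest change of the 33. It stood at 28.0, 40.6, 84.2 and 50.7 CPM in S1-like cells of cortex, outer medulla, whole kidney 1 and whole kidney 2, and at 568, 606, 1298 and 1214 CPM in S3-like cells of the same libraries, with 1707 CPM in those of inner medulla. The segments lay far apart, and both whole kidney libraries exceeded cortex and outer medulla in each segment (log2 fold change 4.34 ± 0.11, edgeR adjusted p = 2.69e-45). Acsl1, the long-chain synthetase, moved the other way, from 90.9, 76.6, 134 and 84.6 CPM in S1-like cells to 28.8, 25.9, 32.7 and 28.6 CPM in S3-like cells (-1.61 ± 0.18, edgeR adjusted p = 1.94e-11). Acsm2 changed little (0.21 ± 0.06), its libraries overlapped, and the call was lost without cortex (0.16, edgeR adjusted p = 0.0514) and in 3 other alternatives. The carnitine shuttle genes Cpt1a (-0.17 ± 0.14), Cpt2 (0.37 ± 0.17), Slc25a20 (0.53 ± 0.26) and Crat (0.06 ± 0.19) were not called.

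Among the dehydrogenases 3 of 4 were higher in S3-like cells. Acadm stood at 510, 455, 566 and 572 CPM in S1-like cells and at 838, 1054, 1139 and 1035 CPM in S3-like cells of the same 4 libraries (1.03 ± 0.07, edgeR adjusted p = 2.05e-20). Acadl had medians of 221 and 391 CPM (0.98 ± 0.10) and Acads, the short-chain enzyme, of 102 and 168 CPM (0.79 ± 0.14), and no S3-like library of these 3 genes overlapped an S1-like one. Acadvl was not called (-0.08 ± 0.12). All 3 genes of unsaturated chains were higher: Eci2 with medians of 92.7 and 233 CPM (1.49 ± 0.12), Decr1 with 192 and 252 CPM (0.51 ± 0.10) and Eci1 with 204 and 221 CPM (0.32 ± 0.10), the last of which lost its call without outer medulla (0.22, edgeR adjusted p = 0.132) and in 5 other alternatives. Etfa (0.50 ± 0.07) and Etfb (0.26 ± 0.06) were higher, and Etfdh, which passes their electrons to ubiquinone, was not called (0.31 ± 0.15).

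The later mitochondrial steps ran mostly the other way, with 3 of 5 genes lower in S3-like cells. Acaa2, the mitochondrial thiolase, stood at 432, 437, 480 and 508 CPM in S1-like cells and at 110, 83.7, 86.2 and 74.4 CPM in S3-like cells, and at 0 UMIs in S3-like cells of inner medulla, which allows up to 104.5 CPM. The segments did not overlap (-2.31 ± 0.11, edgeR adjusted p = 3.18e-29), and the S2-like median of 340 CPM lay between. Hadha had S1-like values of 99.8, 146, 91.4 and 109 CPM and S3-like values of 56.2, 51.8, 50.5 and 58.2 CPM (-0.88 ± 0.16), and Hadhb medians of 99.6 and 58.9 CPM (-0.52 ± 0.15). Both trifunctional protein subunits had their lowest median in the segment in which Acadm had its highest. Echs1 rose (0.57 ± 0.09), and Hadh, at medians of 600 and 612 CPM, was not called (0.14 ± 0.07).

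In the peroxisomal group 5 of 8 genes were higher in S3-like cells and 1 lower. Ehhadh had medians of 77.7 CPM in S1-like and 159 CPM in S3-like cells (1.13 ± 0.15), Crot of 102 and 250 CPM (1.10 ± 0.13), Scp2 of 1119 and 1396 CPM (0.45 ± 0.06) and Abcd3 of 186 and 236 CPM (0.33 ± 0.10). The call of Abcd3 was lost without whole kidney 2 (0.24, edgeR adjusted p = 0.155) and in 4 other alternatives. The near-identical thiolases moved in opposite directions. Acaa1b went from 145, 115, 102 and 127 CPM to 416, 432, 278 and 276 CPM (1.57 ± 0.11, edgeR adjusted p = 9.96e-21), and Acaa1a from 232, 282, 202 and 240 CPM to 159, 120, 107 and 114 CPM (-0.82 ± 0.11, edgeR adjusted p = 7.88e-09). Neither gene's segments overlapped in these libraries, with the limit on telling the copies apart given above. Pex11a, which drives peroxisome division, was higher (33.7 and 72.8 CPM, 1.36 ± 0.19), and Cat was not called (371 and 367 CPM, 0.11 ± 0.08). Ppara was lower in S3-like cells (172 and 101 CPM, -0.58 ± 0.12, edgeR adjusted p = 4.08e-05), with overlapping libraries.

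**Figure D4:**
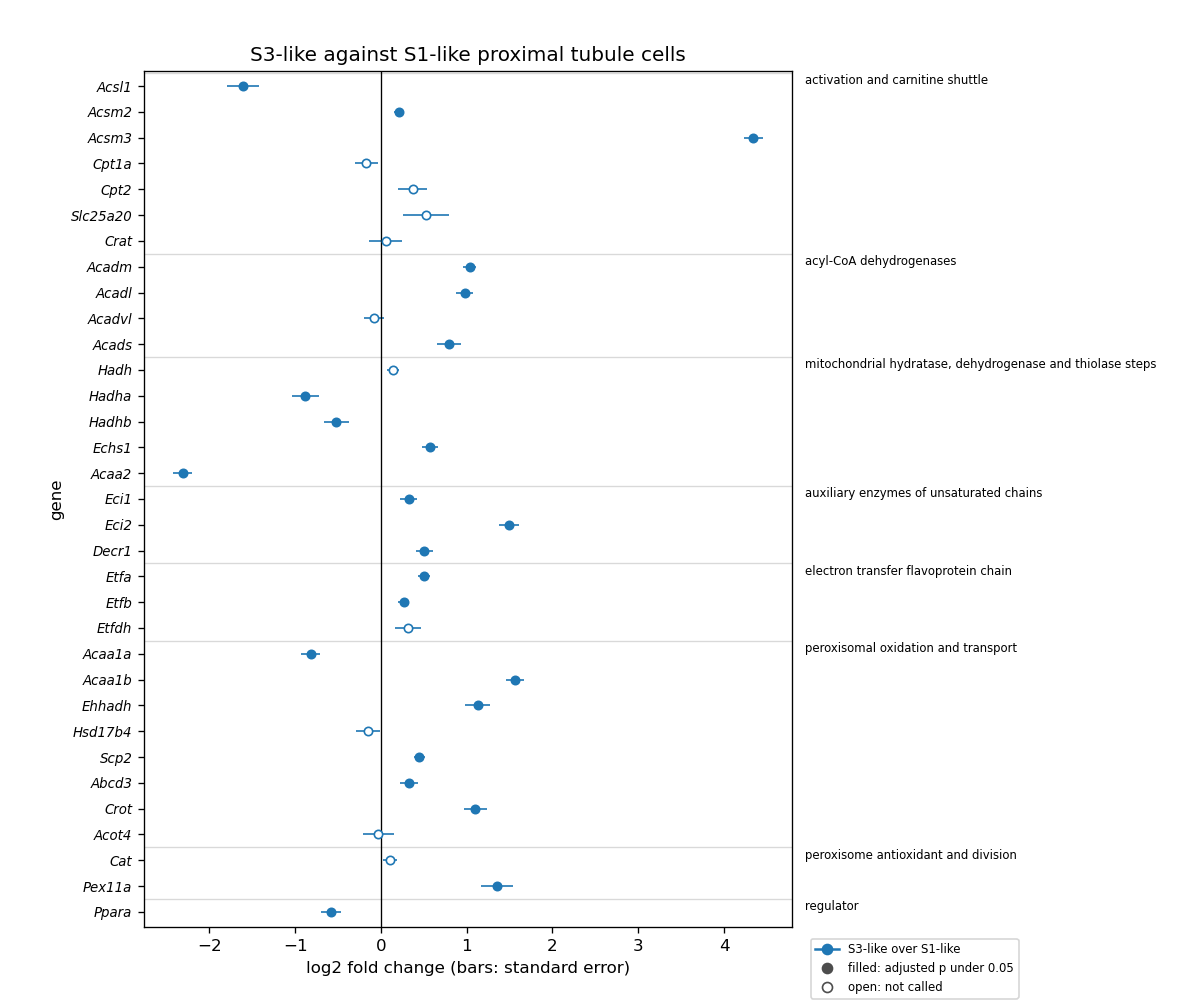
Log2 fold change (x axis, edgeR) of the 33 genes in S3-like over S1-like cells, grouped by role, with standard errors as bars and filled points for adjusted p under 0.05. Acsm3 lies at 4.34 and Acaa2 at -2.31, and 17 filled points lie above 0 and 6 below.

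**Figure D5:**
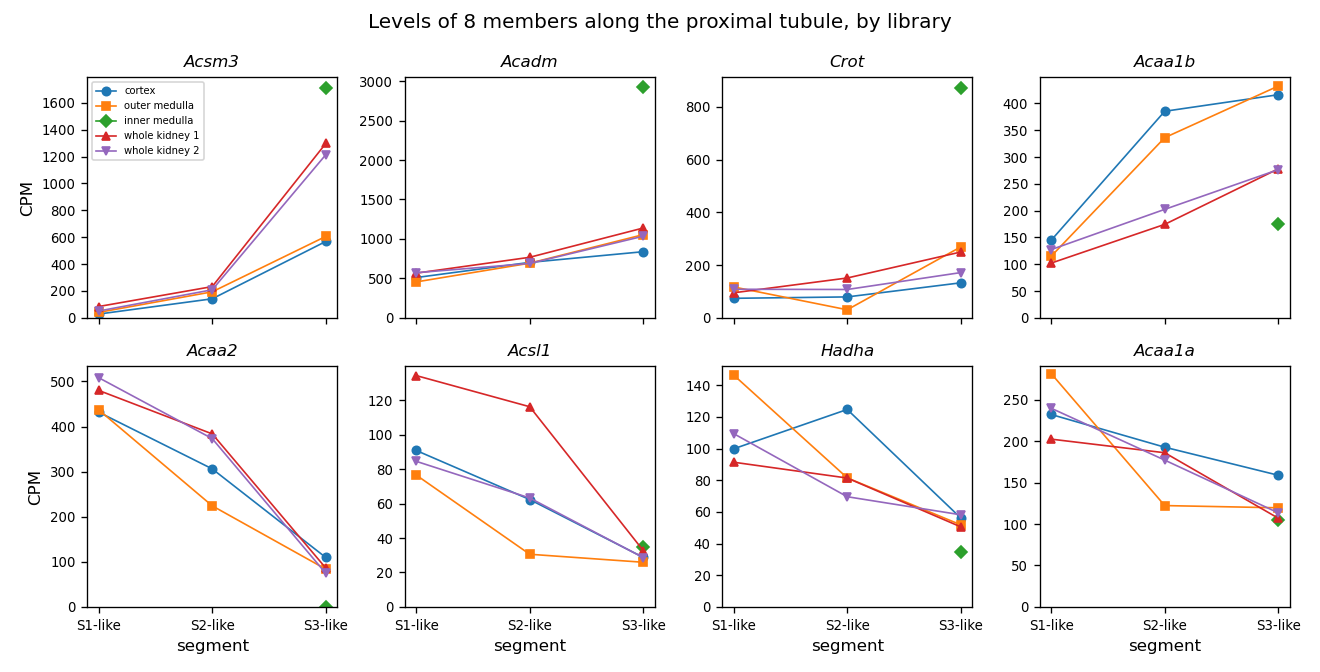
Levels (y axis, CPM) of selected genes in S1-like, S2-like and S3-like cells, 1 point per library. Acaa2 falls from a median of 459 CPM in S1-like to 83.7 CPM in S3-like cells, and Acadm goes from 538 to 1054 CPM.

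Related genes outside the 33 were counted from lists chosen by function, also with earlier results of these data known. Their counts were read against the shares of all genes given above (18.7% higher and 19.4% lower in S3-like cells, 17.4% and 13.7% in the proximal class over the thick ascending limb-like class). Of 24 tested other peroxisomal enzymes, 13 were higher and 3 lower in S3-like than in S1-like cells, among them Nudt19, a coenzyme A diphosphatase (2.88 ± 0.08), Agps, an enzyme of ether lipid synthesis (2.74 ± 0.13), and, lower, Idh1 (-1.19 ± 0.08). Against thick ascending limb-like cells 10 of 17 were higher in the proximal class and 0 lower, led by Pecr (3.75 ± 0.36). Of 9 tested uptake and binding genes, 4 were higher and 4 lower in S3-like cells: Cd36, a fatty acid transporter, was higher (3.88 ± 0.12), as was Slc27a2, a very-long-chain transporter (1.68 ± 0.07), and Fabp3, a fatty acid binding protein, was lower (-3.37 ± 0.12). Further PPARα target genes gave 5 higher and 0 lower of 6, with Cyp4a10 at 2.67 ± 0.28, while of 8 nuclear receptors and coactivators 0 were higher and 4 lower, including Ppargc1a (-1.43 ± 0.21). Of 14 tested genes of peroxisome biogenesis 4 were higher and 1 lower, and of 5 tested genes of fatty acid synthesis 1 was higher and 2 lower, each on few genes. Of 42 oxidative phosphorylation genes 5 were higher and 13 lower, and of 9 glycolytic genes 0 were higher and 7 lower. Bdh1, a ketone body dehydrogenase (4.14 ± 0.27), and Acss1, the mitochondrial acetyl-CoA synthetase (-4.52 ± 0.19), had the largest changes of the mitochondrial acyl-CoA and ketone list, in which 11 of 22 were higher and 5 lower. DESeq2 called fewer genes of these lists in S3-like over S1-like cells: 8 of oxidative phosphorylation, 4 of glycolysis, 2 of the receptors and coactivators, 2 of uptake and binding, 2 of the mitochondrial list, 1 of the other peroxisomal enzymes and 0 of biogenesis lower, and 3 of the PPARα targets higher. Each edgeR count of 0 in this paragraph was also 0 at an unadjusted p under 0.05 and 0 by DESeq2.

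Regions have 1 library each, so no test was run. A gene was counted as different where the ratio of CPM was at least 1.5-fold either way and the exact 95% interval, which covers counting error only, excluded 1. In proximal tubule-like cells 1 of 33 genes was higher and 1 lower in outer medulla than in cortex, against 2.34% and 4.0% of 7254 genes. The median ratio was 0.980 over the 33 genes and 0.986 over all. For whole kidney 2 over whole kidney 1, which gives the spread between libraries, 0 were higher and 1, Acsl1 (0.627), was lower, against 2.14% and 4.83% of genes. That is 2 genes counted between the regions and 1 between the whole kidney libraries. Crot stood at 101 CPM in cortex and 175 CPM in outer medulla (ratio 1.73, 1.42 to 2.10), at 176 and 141 CPM in the whole kidney libraries, and at 554 CPM in inner medulla on 30 UMIs. Ppara stood at 220 CPM in cortex and 132 CPM in outer medulla (0.597, 0.497 to 0.715), at 132 and 111 CPM in whole kidney, and at 185 CPM in inner medulla, where it rests on 10 UMIs (interval 88.5 to 339 CPM). S3-like cells were 493 of 2247 proximal cells in cortex and 362 of 1520 in outer medulla.

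Within S3-like cells 2 genes were higher and 2 lower in outer medulla than in cortex, against 2.49% and 5.09% of 4338 genes. For whole kidney 2 over whole kidney 1 in the same segment, 0 were higher and 2, Acads and Slc25a20, were lower. Crot (2.03, 1.55 to 2.66) and Ppara (0.537, 0.373 to 0.761) were among them again, and Crat (1.92) and Ehhadh (0.611) were the others. The segment joins subclusters. In that of 1581 cells Crot stood at 115 CPM in cortex and 290 CPM in outer medulla, and Ppara at 156 and 111 CPM. In that of 460 cells Crot stood at 148 and 138 CPM, and Ppara at 176 and 76.0 CPM. In that of 94 cells Crot stood at 840 CPM and Ppara at 25.4 CPM in 39 cells of outer medulla, and cortex had fewer than 20 cells. Whether the mix of subclusters accounts for the differences was not tested. The inner medulla library held 90 proximal tubule-like cells, of which 41 were S3-like, with 28706 UMIs. Whether they lay in the inner medulla or were carried over from neighbouring tissue in the dissection was not tested. Of 31 genes with enough UMIs, 6 were higher in these S3-like cells than in those of cortex and 3 lower. Among all 3306 genes the shares were 5.26% and 3.06%, which the counts among the 31 exceed. Acadm stood at 2926 CPM against 838 CPM (3.49, 2.75 to 4.39), Crot at 871 against 133 CPM (6.56, 4.05 to 10.3) and Acsm3 at 1707 against 568 CPM (3.003, 2.19 to 4.05). Acot4 (3.44), Acadl (1.89) and Hadh (1.54) were the other genes counted higher, and Eci1 (0.151, on 1 UMI), Acaa1b (0.418) and Acsm2 (0.613) those counted lower. Of the 41 cells, 22 belonged to a subcluster of 94 cells led by Cyp7b1 and Slc22a19, which held 39 of the 362 S3-like cells of outer medulla. In that subcluster alone Acadm stood at 4178 CPM in inner medulla and 2926 CPM in outer medulla, and Crot at 1221 and 840 CPM. In those 39 cells of outer medulla both genes were far above the 1054 and 269 CPM of all S3-like cells of that library.

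In principal cell-like cells the summed share was 0.612% (0.543% to 0.686%) for cortex, 0.562% (0.513% to 0.615%) for the outer and 0.392% (0.370% to 0.415%) for the inner medulla, and 0.593% and 0.696% for whole kidney 1 and 2. The inner medulla lay below all other libraries, and its interval overlapped none of those given. However, the class joins 2 clusters, and these differ by region. Of its 478 inner medulla cells, 430 were in a cluster led by Aqp4, Plet1 and Phactr1, which held 0 cells of cortex and 0 of outer medulla, so the comparison sets that cluster mostly against another, led by Hsd11b2, Aqp3 and Fxyd4. Within the latter the share was 0.446% (0.358% to 0.549%) in 48 cells of inner medulla, and its interval overlapped those of cortex and outer medulla. In that cluster Acsm2 stood at 50.1 CPM in inner medulla and Etfa at 301 CPM. Of 17 genes with enough UMIs, 0 were higher and 2 lower in inner medulla than in cortex, against 15.9% and 10.2% of 2503 genes. Acsm2 stood at 32.99 against 663 CPM (0.0498, 0.0218 to 0.104) and Etfa at 280 against 641 CPM (0.437, 0.285 to 0.687). In barcodes under 100 genes, from which the free RNA profile was taken, Acsm2 stood at 507 CPM in inner medulla and 3664 CPM in cortex. Etfa stood at 588 and 723 CPM in them. These 2 ratios were not corrected for free RNA, so they are not read as differences in expression between principal cell-like cells. Estimated free RNA was 2.77% of the UMIs of these cells in inner medulla and 21.8% in cortex, and the UMIs of the 33 genes put down to it amounted to 0.0174% and 0.261% of all UMIs in the class. With that part taken off, the summed share was 0.448% for cortex, 0.446% for the outer and 0.385% for the inner medulla, and 0.426% and 0.558% for whole kidney 1 and 2. The inner medulla remained the lowest of the 5, by a smaller margin than before.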

How the data were processed

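The values were raw UMI counts per gene symbol and cell barcode, as deposited by the authors, with 1 table a library and 54072 barcodes in all. The submitters' processing notes name mm9 and Seurat 2.3.1 with no role, with aligner and annotation not given in the sources used here. Of mitochondrial genes, 0 are listed. Barcodes with at least 200 genes were kept as cells, with 520663 to 2886013 UMIs in the cells of a library. Shares and levels are a description of these libraries, and their intervals (binomial exact 95%) and limits cover counting error only.

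Counts were log-normalized in scanpy 1.11.5 and clustered by Leiden (leidenalg 0.10.2) on 30 principal components of 2000 variable genes, with 15 neighbours and resolution 1.0, leaving the 33 genes and the related lists out of the variable genes. Clusters were named from marker lists, of which 141 of 146 symbols were listed. A doublet caller marked 22 cells (0.182%), which counts as not having worked, so all cells were kept. UMIs were summed per class and library (at least 20 cells and 5000 UMIs) and fitted with edgeR 4.0.16 (R 4.3.3) with TMM factors, its filter on low counts and the library as a block, across all classes in 1 fit. The block pairs classes because their cells come from the same library. Scripts were tested on simulated counts. The genes named are all 33, and of each related list up to 3 called genes in each direction with the largest fold change. Because no replicate exists for a region, regions were compared by ratios of CPM only, for genes with at least 30 UMIs in all. The 33 genes, the lists and the tests were chosen with earlier results of these data known. Alternatives were DESeq2 1.42.0, no TMM factors, no filter, no block, a 500-gene minimum, removal of the top 5% of doublet scores, subtraction of free RNA in classes other than the proximal tubule (profile of barcodes under 100 genes, scaled by proximal tubule markers), a clustering resolution of 1.5 (for the S3-like and S1-like comparison), classes from cell scores, clustering with the 33 genes, and each library left out. A fit of only the compared classes and a restriction to named proximal segments were added after seeing the data.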

Additional observations from a re-analysis of the deposited data

How the results depend on the processing

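Calls that held in every setting in which the gene could be tested numbered 19 of 23 for S3-like over S1-like, to which subtraction of free RNA was not applied, 2 of 14 for proximal tubule over thick ascending limb, 8 of 15 over distal convoluted tubule, 10 of 20 over principal cells, and 0 of 9 for thick ascending limb over principal cells. Without the minimum of 500 genes, which left thick ascending limb-like cells of 1 library and so could call few genes, they numbered 19, 7, 8, 13 and 5. The comparisons differ in settings and depth and are not ranked. DESeq2 gave 12 higher and 2 lower, 11 and 4, 19 and 1, and 10 and 0 in the last 4 comparisons, and 15 and 6 for S3-like over S1-like. Below the limit of a 0 count an absent gene cannot be told from a low one. The cause of the changes below was not tested otherwise.

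Proximal tubule over thick ascending limb, 12 higher, became 6 without TMM factors, 2 with cells of at least 500 genes, 6 with classes from cell scores, 7 with the 33 genes in the clustering and 6 to 9 with a library left out, and the 2 lower became 0 with cells of at least 500 genes. Over distal convoluted tubule, 11 higher became 7 without TMM factors, 7 with cell scores and 6 to 11 with a library left out. Over principal cells, 19 higher became 12 with at least 500 genes and 12 to 18 with a library left out, and the 1 lower became 2 without TMM factors and with at least 500 genes, and 0 without the low-count filter, without the block and with free RNA subtracted. Thick ascending limb over principal cells, 9 higher, became 0 with at least 500 genes, 5 (of 11 tested) with only the compared classes and 6 to 8 with a library left out. Directions reversed for Acadm (-0.23, at least 500 genes), Acaa1a (-0.050) and Crot (-0.021, both cell scores) over thick ascending limb, and for Hadhb (-0.26, at least 500 genes) in thick ascending limb over principal cells.

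In proximal tubule, outer medulla over cortex went from 1 higher and 1 lower to 0 and 3 with at least 500 genes and to 2 lower with cell scores. In principal cells, inner medulla over cortex went from 2 lower to 6 with at least 500 genes, 1 without the top doublet scores and 5 with cell scores. The median summed share moved to 1.22% in S2-like cells with the 33 genes in the clustering. With cell scores it was 1.21% (from 0.604%) in thin limb, 0.995% in thick ascending limb, 0.981% in distal convoluted tubule, 0.988% in connecting tubule, 0.720% in principal, 0.826% in intercalated, 1.12% in podocyte and 1.10% in macrophage cells. With at least 500 genes it was 0.903% in thick ascending limb and 0.874% in distal convoluted tubule. With free RNA subtracted it was 0.747% in distal convoluted tubule, 0.554% in connecting tubule, 0.447% in principal, 0.206% in endothelial, 0.211% in podocyte and 0.238% in macrophage cells. That subtraction was made gene by gene, with values below 0 set to 0. Taken off the summed share instead, the podocyte value was 0.0227%. The median summed share was 0.669% in connecting tubule without the top doublet scores and 0.555% in macrophage cells with the 33 genes in the clustering.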
